A study of Homo sapiens with 6 samples.

Results

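DNA repair genes were read here in ME-1, a human leukaemia cell line that carries the inversion inv(16), after 6 h with the compound AI-10-49 at 1 µM or with the solvent DMSO alone. A gene was taken when the deposited table gave it a row of its own and its symbol started with FANC, XRCC, ERCC, PARP, BRCA or BRIP, or with RAD, MSH, MLH or PMS followed by a digit, or was one of 14 further symbols such as ATR, CHEK1, XPC, DDB2 or UNG. This rule used symbols only and took in 39 genes of the 6339 rows, of which 36 are described. BRCA1, ATM, FANCD2 and many other repair genes had no row of their own and were not analysed here. The inversion fuses CBFB to MYH11, both groups carry the fusion, and AI-10-49 is an inhibitor of the fusion protein that keeps it from RUNX1. Each group held 3 libraries from independent experiments on this 1 cell line, read as 90 bp pairs. Values are FPKM, that is fragments scaled to transcript length and library size, and the depth of each library is unknown.

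Cells mend DNA by several routes that share few parts. Base excision cuts out single damaged or wrong bases, mismatch repair corrects copying errors, and nucleotide excision removes bulky lesions such as those made by ultraviolet light. Double-strand breaks are either rejoined end to end or copied from the sister chromatid by homologous recombination, the Fanconi anaemia proteins open crosslinks between strands, and checkpoint kinases hold the cell cycle meanwhile. Several of these genes are expressed mainly in S phase, when the DNA is copied.

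In all 36 genes 1 or both groups averaged 1 FPKM or more, the level needed for testing, and all 36 passed the test (limma, adjusted p under 0.05 over all 6230 tested rows). With AI-10-49, 20 were lower and 16 were higher. The table is itself a selected set, in which 95.3% of tested rows passed, 49.1% lower and 46.2% higher. A full count therefore says nothing particular about repair genes. Counts by route below are of few genes each, stand beside these same shares, and were not tested. The median log2 fold change, always AI-10-49 minus DMSO on log2(FPKM + 1), was -0.26 for the 36 genes and -0.28 for all tested rows, but -0.19 and -0.06 after quantile normalization. The largest fall was -2.22 in UNG and the largest rise 1.04 in PARP11, and 5 of 36 genes moved by at least 1 on this scale (13.9%, the same share to this precision as among all tested rows). The 3 libraries of one group lay apart from those of the other in all 36 genes, as they did in 96.2% of tested rows. For a single gene, an exact two-sided permutation test of 3 against 3 libraries cannot give a p below 0.1. In a bulk RNA sample, fewer cells of a type and less RNA per cell cannot be told apart.

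The library AI-10-49 replicate 2 stood apart from replicates 1 and 3. It was the lowest of the 3 in all 294 tested rows of at least 100 FPKM, and reached 159 FPKM at most, where the others reached 1843 and 1877 FPKM. Among the repair genes it was the lowest AI-10-49 library in 10 of 10 genes whose mean in replicates 1 and 3 was at least 20 FPKM, and the highest in 17 of the 26 below that level. Without it 20 genes were lower and 15 higher, no gene changed direction, and the log2 fold change moved by at most 0.12 (XRCC2). PARP3 was the gene that lost its call. Of 11 markers of the labelled leukaemia cell 8 had a row (KIT, CLC, PRG2, ELANE, CD33, LYZ, CBFB and CEBPA), and their summed level ranged from 571 to 654 FPKM with DMSO and from 168 to 202 FPKM with AI-10-49. Markers of T and NK cells (CD3D and CD3E, 2 of 7 listed) summed to between 32.6 and 34.3 FPKM with DMSO and between 16.9 and 17.2 FPKM with AI-10-49, those of B cells (CD79A and CD79B, 2 of 5) to between 24.8 and 30.0 FPKM and between 8.72 and 10.6 FPKM, and those of fibroblasts and endothelium (PECAM1 and VWF, 2 of 6) to between 11.7 and 12.5 FPKM and between 6.71 and 7.19 FPKM. Of 5 erythroid markers listed none had a row. The part of these shifts in the repair results was not tested.

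**Figure D1:**
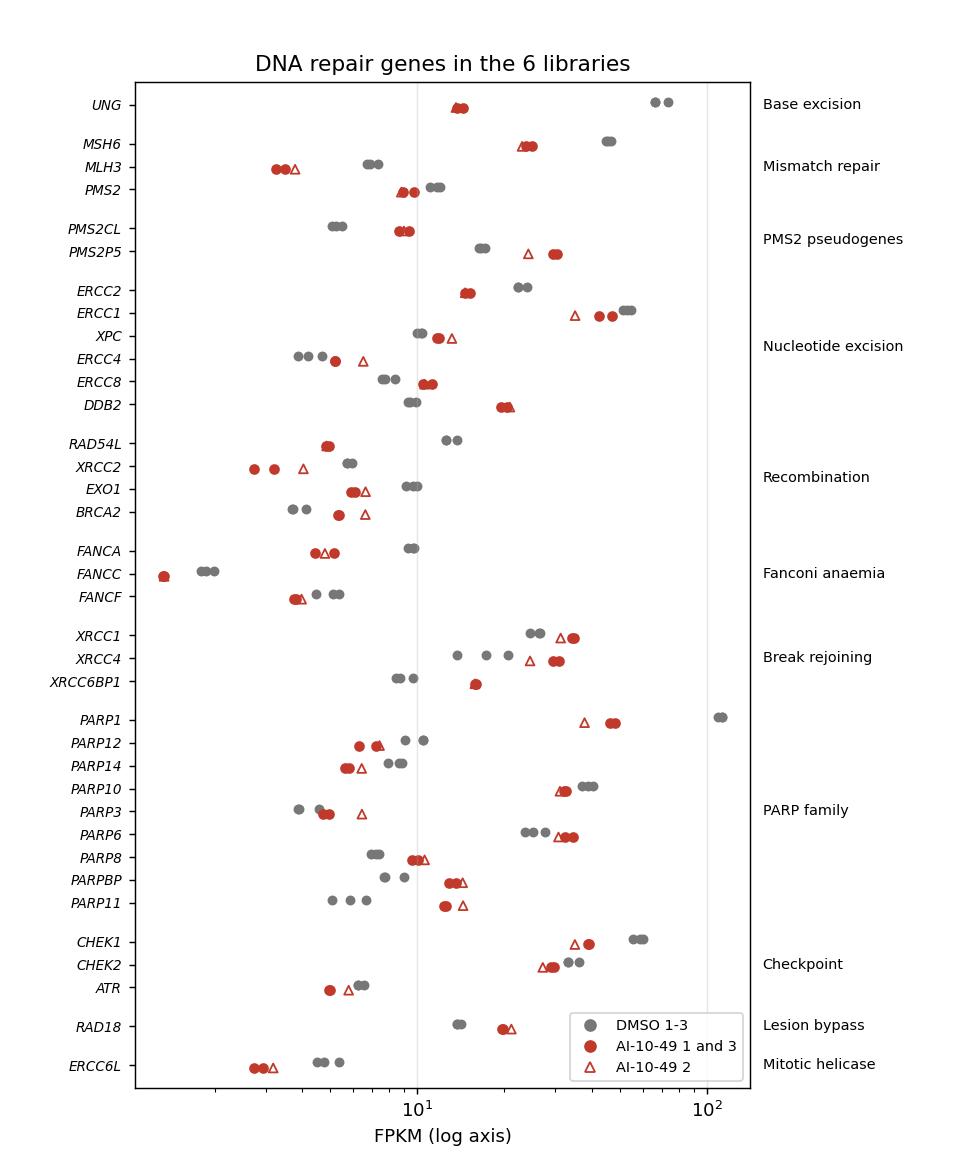
FPKM on a log axis of the 36 repair genes, grouped by role, in the DMSO libraries (grey) and the AI-10-49 libraries (red, with replicate 2 as an open triangle). UNG sits at 66.1 to 73.7 FPKM with DMSO and at 13.6 to 14.4 FPKM with AI-10-49, and in PARP1 and ERCC1 the triangle lies below the other AI-10-49 libraries.

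Split by their own call, the genes that fell outweighed those that rose in FPKM. That split fixes the direction of each sum in advance. The largest falls in mean FPKM were those of PARP1 (from 112 to 44.2) and UNG (from 68.7 to 13.9). Summed over the 20 that fell, the DMSO libraries held 516, 524 and 539 FPKM and the AI-10-49 libraries 307, 278 and 298 FPKM. Summed over the 16 that rose, the DMSO libraries held 174, 172 and 176 FPKM and the AI-10-49 libraries 268, 260 and 264 FPKM. The genes that fell had a median DMSO level of 10.8 FPKM and those that rose one of 8.54 FPKM. Across the 36 genes, the DMSO level and the log2 fold change had a Spearman correlation of -0.30, and across all 6230 tested rows one of -0.40. These are correlations across genes of the same 6 libraries, and the DMSO values enter both measures.

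Promoter sequence was set beside the direction of change. RefSeq promoters (GRCh38.p14, 250 bases before to 50 after the gene start) matched 33 of the 36 genes by symbol, and PARP10, PMS2CL and PMS2P5 had no entry. The E2F core letters TTCGCGC or TTGGCGC, on either strand, occurred in 7 of the 19 promoters of genes that fell (36.8%) and in 0 of the 14 of genes that rose. The share was 5.18% of all 27305 promoters of this length, 9.59% for table rows that fell and 9.15% for table rows that rose. E2F factors include activators of S-phase genes. Other genes that fell, among them RAD54L, MSH6, CHEK1 and XRCC2, had no match. The matches are shown with 10 bases on each side, in the gene's own direction, with the matched letters in capitals, because among these genes they were found in falling ones. The difference in share was not tested, nor was any part of E2F in the falls.
UNG, chr12:109097579-109097608, + strand: cgcgggccgcTTGGCGCCAAttgctgaccg
FANCA, chr16:89816610-89816636, - strand: ggggctgtagGCGCCAAggccatgtcc
FANCC, chr9:95317865-95317891, - strand: cggggcttccGCGCGAAaccgggaaca
FANCF, chr11:22625806-22625832, - strand: aagtagggccTTCGCGCacctcatgga
EXO1, chr1:241848199-241848225, + strand: aggtcagcctTTCGCGCgctgtgtagg
ERCC6L, chrX:72239249-72239275, - strand: gcacacgcacGCGCGAAcgaattggct
PARP14, chr3:122680833-122680859, + strand: cggcccggagTTGGCGCggcccctgca
In UNG the match reads on both strands, and its last letters with the next base also spell CCAAT, so that 2 motifs share bases there. Of the 7 stretches 5 begin within 25 bases of the gene start, while those of FANCC and ERCC6L begin 172 and 238 bases before it. A match is a run of letters and not a measured binding site.

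Shares of the other motifs searched are given as descriptions too. The GC box GGGCGG, on either strand, occurred in 16 of 19 promoters of genes that fell and 9 of 14 of genes that rose (84.2% and 64.3%). The share was 44.6% of all promoters, 73.9% for table rows that fell and 67.4% for table rows that rose, so that the table rows stood close to the repair genes. CCAAT occurred in 10 of 19 and 6 of 14, against 35.7% of all promoters and 37.8% and 38.5% of the table rows that fell and rose. The E-box CACGTG, the core that MYC with MAX binds, occurred in 1 of 19 and 2 of 14, against 7.43% of all promoters and 13.5% and 9.76% of those table rows. The CHR element TTTGAA, an element of cell cycle promoters, occurred in 2 of 19 and 3 of 14, against 15.4% of all promoters and 9.16% and 11.9% of the table rows. The AP-1 letters TGACTCA occurred in none of the 33, against 4.92% of all promoters and 2.08% and 3.17% of the table rows. The 250 bases before the gene start are printed for the 3 largest falls and the 2 largest rises that had an entry, with GC boxes, CCAAT boxes and E2F letters in capitals.
UNG, chr12:109097347-109097596, + strand: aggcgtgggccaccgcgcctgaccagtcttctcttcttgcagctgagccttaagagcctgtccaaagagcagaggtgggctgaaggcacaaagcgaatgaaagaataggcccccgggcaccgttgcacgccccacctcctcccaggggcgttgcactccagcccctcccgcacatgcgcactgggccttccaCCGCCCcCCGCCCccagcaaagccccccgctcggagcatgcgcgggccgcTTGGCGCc
PARP1, chr1:226408094-226408343, - strand: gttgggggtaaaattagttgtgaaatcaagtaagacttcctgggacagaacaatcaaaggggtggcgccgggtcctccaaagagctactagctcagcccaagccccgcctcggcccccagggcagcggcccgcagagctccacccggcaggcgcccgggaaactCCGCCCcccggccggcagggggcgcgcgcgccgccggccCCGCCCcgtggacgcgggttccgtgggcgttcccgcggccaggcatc
RAD54L, chr1:46247438-46247687, + strand: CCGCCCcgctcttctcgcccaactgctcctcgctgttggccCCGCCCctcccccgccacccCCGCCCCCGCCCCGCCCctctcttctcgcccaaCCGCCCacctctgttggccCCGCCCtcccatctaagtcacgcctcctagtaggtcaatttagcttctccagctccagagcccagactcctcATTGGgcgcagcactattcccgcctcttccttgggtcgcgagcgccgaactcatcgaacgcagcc
PARP11, chr12:3873400-3873649, - strand: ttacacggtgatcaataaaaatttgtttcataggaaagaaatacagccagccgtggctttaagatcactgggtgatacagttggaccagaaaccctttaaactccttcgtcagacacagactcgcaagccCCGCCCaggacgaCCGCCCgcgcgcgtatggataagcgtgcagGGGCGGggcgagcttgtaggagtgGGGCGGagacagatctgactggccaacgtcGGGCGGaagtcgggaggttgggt
DDB2, chr11:47214204-47214453, + strand: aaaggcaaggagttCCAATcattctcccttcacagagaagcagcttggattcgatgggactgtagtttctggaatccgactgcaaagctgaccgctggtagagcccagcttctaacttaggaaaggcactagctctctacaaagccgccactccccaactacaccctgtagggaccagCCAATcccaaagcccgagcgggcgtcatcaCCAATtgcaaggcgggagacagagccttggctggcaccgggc
RAD54L holds 7 GC boxes in this stretch, PARP11 5, and UNG and PARP1 2 each. DDB2 holds none, and has 3 CCAAT boxes.

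Base excision was represented by 1 of the 36 genes, and that gene had the largest change among them. UNG, the uracil-DNA glycosylase that removes uracil from DNA, stood at 66.1, 66.2 and 73.7 FPKM in the DMSO libraries and at 14.4, 13.6 and 13.7 FPKM in the AI-10-49 libraries. Every AI-10-49 library lay far below every DMSO library, and replicate 2 did not stand out. The mean fell from 68.7 ± 4.38 to 13.9 ± 0.45 FPKM (SD, n = 3), 4.94-fold lower (-2.22 ± 0.07 SE on the log2 scale, adjusted p = 8.54e-11). OGG1 and MUTYH, the glycosylases that deal with oxidised guanine, had no row of their own and were not analysed here. Of 16 other base excision genes 9 had a row, and 6 fell, 2 rose and 1 did not pass. FEN1, the flap nuclease of long-patch repair and of replication, changed by -1.92, the thymine glycol glycosylase gene NTHL1 by -1.14, and NUDT1, which clears oxidised nucleotides, by -0.73. POLB, the gap-filling polymerase, changed by 0.73. APEX1, the abasic site nuclease, had a log2 fold change of -0.60 (adjusted p = 0.194), and of -0.22 (adjusted p = 0.0143) without AI-10-49 replicate 2.

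The 3 mismatch repair genes described here all fell, by unequal amounts. MSH6, a subunit of the heterodimer that finds mispaired bases, stood at 45.7, 45.0 and 46.8 FPKM with DMSO and at 24.9, 23.0 and 23.8 FPKM with AI-10-49, 1.92-fold lower (log2 fold change -0.91 ± 0.07 SE, adjusted p = 1.39e-07). MLH3, a subunit of a complex best known from meiosis, stood at 6.68, 7.29 and 6.87 FPKM and then at 3.50, 3.78 and 3.25 FPKM, 1.98-fold lower (-0.82 ± 0.08, adjusted p = 6.22e-07). PMS2, a subunit of the complex that nicks the DNA after recognition, stood at 11.7, 11.1 and 11.95 FPKM and then at 9.73, 8.80 and 8.89 FPKM (-0.31 ± 0.07, adjusted p = 0.000666). In each of these 3 genes every AI-10-49 library lay below every DMSO library, and PMS2 fell least.

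The value of PMS2 is uncertain, since its pseudogenes are nearly identical in part of their sequence and the counting could divide reads among them. Both pseudogene rows that the symbol rule took in rose. PMS2CL stood at 5.25, 5.48 and 5.09 FPKM with DMSO and at 8.68, 8.99 and 9.32 FPKM with AI-10-49 (log2 fold change 0.67). PMS2P5 stood at 17.1, 16.4 and 16.6 FPKM and then at 30.4, 24.2 and 29.5 FPKM (0.71, or 0.81 without AI-10-49 replicate 2). Of 11 other genes that serve mismatch repair, most of them shared with replication, 8 had a row, 7 fell and 1 rose. PCNA, the sliding clamp, stood at 215, 206 and 239 FPKM and then at 81.4, 44.1 and 82.4 FPKM (-1.70, or -1.41 without AI-10-49 replicate 2). The polymerase delta subunit genes POLD3 and POLD2 changed by -0.83 and -0.72.

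Nucleotide excision genes went both ways, 4 higher and 2 lower of 6. DDB2, the subunit that finds ultraviolet lesions in chromatin and a known p53 target, stood at 9.46, 9.87 and 9.28 FPKM with DMSO and at 20.4, 20.9 and 19.4 FPKM with AI-10-49. Its libraries were tight within each group, and the mean rose 2.12-fold from 9.54 ± 0.30 to 20.2 ± 0.75 FPKM (SD, n = 3), or by 1.01 ± 0.06 (SE, log2 scale, adjusted p = 1.38e-08). XPC, the lesion sensor that acts with DDB2 across the genome, rose far less. It stood at 10.3, 10.4 and 9.96 FPKM and then at 11.9, 13.2 and 11.7 FPKM, with replicate 2 the highest (0.24 ± 0.07, adjusted p = 0.00434, and 0.19 without replicate 2). ERCC8, which serves repair of transcribed genes, stood at 7.74, 7.52 and 8.36 FPKM and then at 11.2, 10.6 and 10.5 FPKM (0.41 ± 0.07, adjusted p = 8.41e-05).

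ERCC2, a helicase of the factor TFIIH that opens DNA around the lesion, fell. It stood at 22.3, 23.97 and 22.3 FPKM with DMSO and at 15.2, 14.6 and 14.6 FPKM with AI-10-49, 1.54-fold lower (log2 fold change -0.59 ± 0.06 SE, adjusted p = 1.75e-06). ERCC1 and ERCC4 encode the subunits of the nuclease that cuts on one side of the lesion, and they went opposite ways. ERCC1 stood at 51.2, 53.0 and 54.8 FPKM and then at 47.1, 35.1 and 42.4 FPKM (-0.35 ± 0.11, adjusted p = 0.00846), and without AI-10-49 replicate 2, its lowest library, the change was -0.24. ERCC4 stood at 4.19, 3.86 and 4.70 FPKM and then at 5.18, 6.50 and 5.19 FPKM (0.33 ± 0.09, adjusted p = 0.00486), and without replicate 2, here the highest library, the change was 0.24. The ratio of ERCC1 to ERCC4 FPKM was 12.2, 13.7 and 11.7 with DMSO and 9.08, 5.39 and 8.18 with AI-10-49. Its lower level with AI-10-49 follows from the opposite changes of both genes, and its size rested in part on replicate 2. The pair was chosen after values were seen.

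Among 20 other nucleotide excision genes on the list, 14 rows were tested (POLE4 stands on 2 rows), of which 8 fell and 6 rose. The catalytic subunit gene of polymerase epsilon, POLE, changed by -0.87. MNAT1 and CCNH, subunits of the kinase module of TFIIH, changed by 0.82 and 0.81, the opposite direction to ERCC2 of the same factor. RBX1, a subunit of the ubiquitin ligase that DDB2 joins, changed by -0.43 (adjusted p = 0.0445) and by -0.17 (adjusted p = 0.0637) without AI-10-49 replicate 2.

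**Figure D2:**
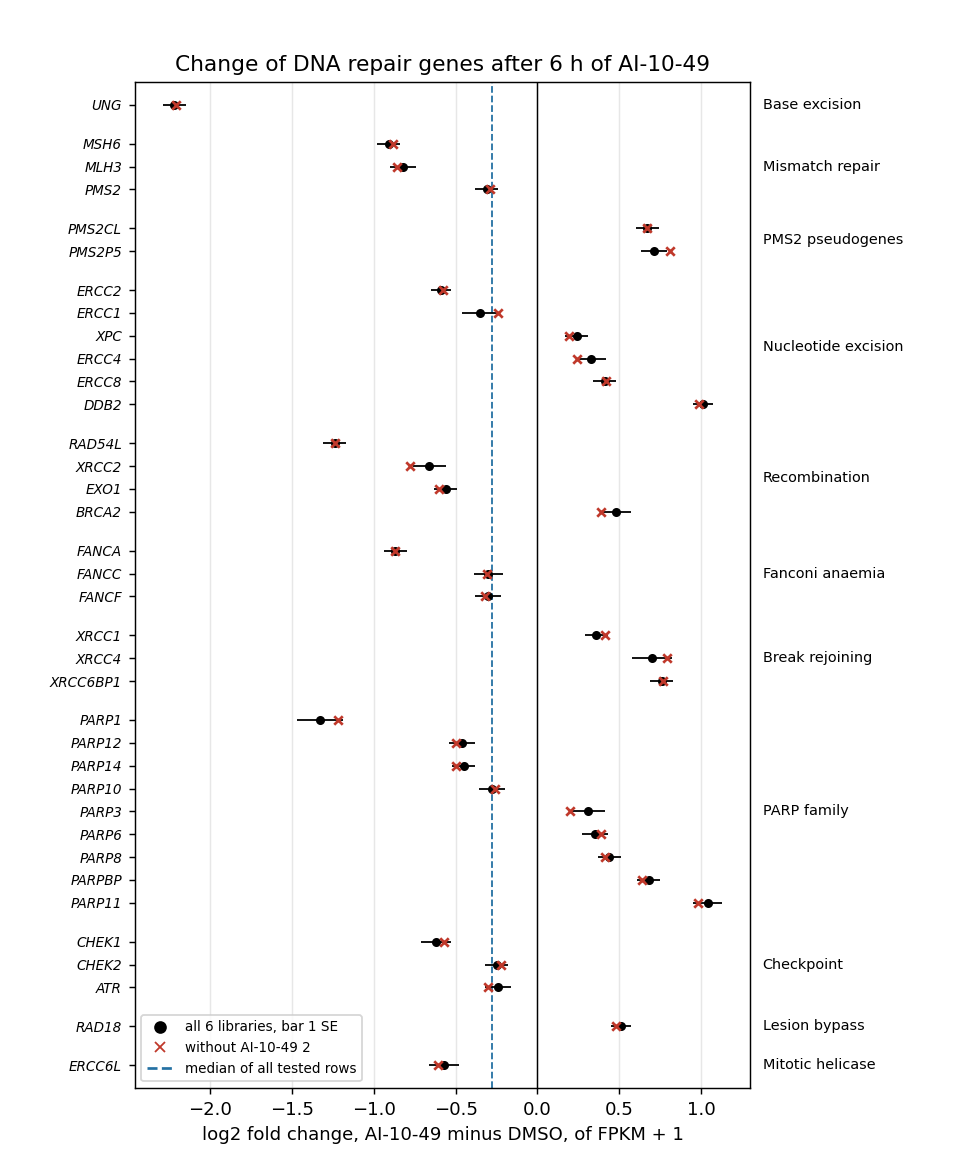
Log2 fold change of FPKM + 1, AI-10-49 minus DMSO, of the 36 repair genes by role, with 1 SE as a bar, the value without AI-10-49 replicate 2 as a red cross and the median of all tested rows as a dashed line. UNG stands farthest to the left at -2.22, and PARP11 farthest to the right at 1.04.

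Recombination genes fell in 3 of the 4 cases described. RAD54L, a motor protein of strand invasion, stood at 12.6, 13.7 and 12.5 FPKM with DMSO and at 4.82, 4.86 and 4.95 FPKM with AI-10-49. The AI-10-49 libraries nearly coincided, and the gene was 2.65-fold lower (log2 fold change -1.24 ± 0.07 SE, adjusted p = 3.96e-09). XRCC2, which helps strand exchange begin, stood at 5.72, 5.95 and 5.70 FPKM and then at 3.19, 4.04 and 2.72 FPKM. The log2 fold change was -0.66 ± 0.10, or -0.78 without replicate 2. EXO1, a nuclease that resects DNA ends and also serves mismatch repair, stood at 10.01, 9.16 and 9.63 FPKM and then at 5.91, 6.62 and 6.09 FPKM (-0.56).

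BRCA2, a mediator of strand exchange and a well-known tumour suppressor, rose. It stood at 3.73, 4.11 and 3.68 FPKM with DMSO and at 5.32, 6.61 and 5.38 FPKM with AI-10-49, 1.502-fold higher (log2 fold change 0.48 ± 0.09 SE, adjusted p = 0.00023, and 0.39 without replicate 2). All AI-10-49 libraries lay above all DMSO libraries. The ratio of XRCC2 to BRCA2 FPKM was 1.53, 1.45 and 1.55 with DMSO and 0.600, 0.611 and 0.506 with AI-10-49, and that of RAD54L to BRCA2 was 3.37, 3.32 and 3.40 and then 0.905, 0.735 and 0.920. Of 38 other recombination genes 18 were tested, and 9 rose, 8 fell and 1 did not pass. The helicase genes RECQL4 and HELQ changed by -0.99 and 0.90, and FIGNL1, an ATPase gene of the same route, by -0.97. SHFM1, which encodes a small BRCA2 partner, had a log2 fold change of -0.74 (adjusted p = 0.119) and of -0.27 (adjusted p = 0.00794) without AI-10-49 replicate 2. DMC1, a meiotic recombinase gene, was below the filter.

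The 3 Fanconi anaemia genes with the FANC prefix all fell, and they encode parts of the core complex, the ubiquitin ligase of the pathway. FANCA stood at 9.68, 9.76 and 9.31 FPKM with DMSO and at 5.16, 4.79 and 4.42 FPKM with AI-10-49 (log2 fold change -0.87 ± 0.07 SE, adjusted p = 1.93e-07). FANCF stood at 4.47, 5.12 and 5.35 FPKM and then at 3.80, 3.98 and 3.74 FPKM (-0.30 ± 0.08, adjusted p = 0.00333). FANCC, the lowest of the 36 genes, stood at 1.86, 1.98 and 1.79 FPKM and then at 1.32, 1.33 and 1.34 FPKM (-0.30 ± 0.09, adjusted p = 0.00799). At this level the pseudocount compresses the change, and with a pseudocount of 0.1 the value of FANCC was -0.47. Of 18 other genes of the pathway 8 had a row, 6 lower and 2 higher. STRA13, a partner of the helicase FANCM, changed by -1.48, the ubiquitin-conjugating enzyme gene UBE2T by -0.92, and C17orf70, a further core complex gene, by -0.79.

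XRCC4, XRCC1 and XRCC6BP1 were grouped under end joining and single-strand break repair, and all 3 rose. The place of XRCC6BP1 in this group rests on its symbol alone. XRCC4, the scaffold of the ligase that closes double-strand breaks, stood at 17.3, 13.7 and 20.6 FPKM with DMSO and at 30.9, 24.5 and 29.4 FPKM with AI-10-49. It scattered more within groups than XRCC1 and XRCC6BP1, yet the groups did not overlap (log2 fold change 0.70 ± 0.12 SE, adjusted p = 0.000148). XRCC1, the scaffold of single-strand break repair, stood at 26.5, 24.6 and 26.2 FPKM and then at 34.3, 31.3 and 34.8 FPKM (0.36 ± 0.07, adjusted p = 0.000456). XRCC6BP1, a metalloprotease gene named for the binding of its product to the Ku subunit XRCC6, stood at 8.47, 9.66 and 8.71 FPKM and then at 15.9, 15.8 and 15.9 FPKM (0.76 ± 0.07, adjusted p = 2.76e-07). Of 15 other genes of these routes 7 had a row, 4 higher and 3 lower. APLF, which binds both XRCC1 and XRCC4, stood at 1.39, 2.33 and 1.82 FPKM and then at 5.99, 7.54 and 7.39 FPKM, 3.78-fold higher (1.49). The gap-filling polymerase gene POLL changed by 0.71 and PAXIP1, an adaptor at breaks, by -0.81.

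The PARP genes share a catalytic fold that transfers ADP-ribose, but only some act in repair. PARP1, the main sensor of DNA breaks and the most abundant of the 36 genes, stood at 109, 112 and 113 FPKM with DMSO and at 46.4, 37.8 and 48.3 FPKM with AI-10-49. The mean fell from 111.6 ± 2.03 to 44.2 ± 5.58 FPKM (SD, n = 3), which was 2.53-fold lower (log2 fold change -1.33 ± 0.14 SE, adjusted p = 1.45e-06, and -1.22 without AI-10-49 replicate 2). XRCC1, which PARP1 recruits, rose, and the ratio of PARP1 to XRCC1 FPKM was 4.12, 4.57 and 4.31 with DMSO and 1.35, 1.21 and 1.39 with AI-10-49. PARP3, which acts with PARP1 at breaks, stood at 3.87, 4.58 and 3.89 FPKM and then at 4.97, 6.44 and 4.72 FPKM. Its change of 0.31 (adjusted p = 0.0113) was 0.20 without AI-10-49 replicate 2 (adjusted p = 0.0509).

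Besides PARP1, 3 genes with this prefix fell. PARP12 went from 9.98 ± 0.82 to 6.96 ± 0.61 FPKM (SD, n = 3), a change of -0.46 on the log2 scale, PARP14 from 8.48 ± 0.49 to 5.94 ± 0.43 FPKM (-0.45) and PARP10 from 38.9 ± 1.70 to 32.0 ± 0.78 FPKM (-0.28). The remaining genes with this prefix rose. PARP11, an enzyme that adds single ADP-ribose units, stood at 6.64, 5.86 and 5.08 FPKM and then at 12.6, 14.4 and 12.3 FPKM, 2.23-fold higher (1.04 ± 0.09 SE, adjusted p = 2.78e-07). PARPBP, which is no PARP enzyme but a PARP1 partner that limits recombination, stood at 7.74, 7.66 and 9.02 FPKM and then at 12.9, 14.3 and 13.6 FPKM (0.68 ± 0.07, adjusted p = 2.52e-06). PARP6 and PARP8 changed by 0.35 and 0.44. Of 8 related genes 4 had a row, and TIPARP (0.92) and the tankyrase gene TNKS (0.82) were among 3 that rose, while DTX3L (-0.43), whose protein pairs with PARP9, fell.

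Checkpoint kinase genes fell, though by unequal amounts. CHEK1, the effector kinase of the replication stress checkpoint, stood at 59.0, 55.5 and 60.4 FPKM with DMSO and at 38.8, 35.0 and 39.3 FPKM with AI-10-49, 1.55-fold lower (log2 fold change -0.62 ± 0.09 SE, adjusted p = 4.33e-05). ATR, the kinase that activates it, stood at 6.25, 6.57 and 6.22 FPKM and then at 4.98, 5.79 and 4.95 FPKM (-0.24 ± 0.08, adjusted p = 0.00954). CHEK2, the effector of the double-strand break checkpoint, stood at 33.1, 33.3 and 36.3 FPKM and then at 29.6, 27.1 and 29.0 FPKM (-0.25 ± 0.07, adjusted p = 0.00596). The ratio of CHEK1 to CHEK2 FPKM was 1.78, 1.67 and 1.66 with DMSO and 1.31, 1.29 and 1.36 with AI-10-49, and that of CHEK1 to ATR was 9.44, 8.45 and 9.70 and then 7.80, 6.05 and 7.93. Of 21 other checkpoint genes 13 had a row, 8 lower and 5 higher. CDC25A, the phosphatase that CHEK1 marks for destruction, stood at 21.6, 21.3 and 21.8 FPKM and then at 4.95, 4.84 and 4.46 FPKM (-1.97). CLSPN, the adaptor between ATR and CHEK1, and WEE1, a kinase that restrains CDK1, changed by -1.63 and -1.37.

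RAD18, the ubiquitin ligase that opens the way for lesion bypass by marking PCNA, rose. It stood at 13.7, 13.7 and 14.1 FPKM with DMSO and at 19.5, 21.1 and 19.8 FPKM with AI-10-49 (log2 fold change 0.51 ± 0.06 SE, adjusted p = 5.78e-06). Its partner UBE2B, an E2 enzyme, changed by 1.00, and by 1.19 without AI-10-49 replicate 2. UBE2A, the near twin of UBE2B, had a log2 fold change of 0.25 (adjusted p = 0.051), and of 0.36 (adjusted p = 0.000461) without that library. Of 23 other bypass and direct reversal genes 11 had a row, 8 higher, 2 lower and 1 not past the threshold. Among all tested rows 46.2% were higher and 49.1% lower. CCDC111, the older symbol of the primase-polymerase gene PRIMPOL, changed by 1.11 and ALKBH2, a demethylase that repairs alkylated bases, by -0.83. ERCC6L, taken in by its symbol, encodes a helicase of mitotic DNA bridges. It stood at 5.36, 4.52 and 4.75 FPKM and then at 2.94, 3.18 and 2.74 FPKM (-0.57 ± 0.09, adjusted p = 4.08e-05).

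**Figure D3:**
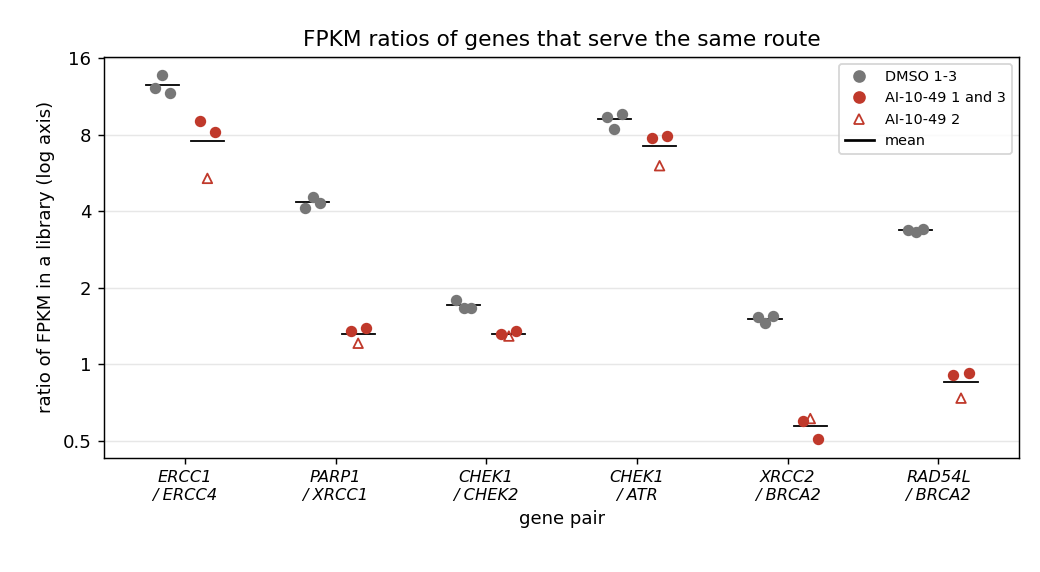
Ratio of FPKM within each library (log axis) for 6 pairs of genes that serve the same route, DMSO in grey, AI-10-49 in red with replicate 2 as an open triangle, and group means as lines. The groups lie apart in each pair, and all 6 ratios are lower with AI-10-49, RAD54L to BRCA2 from a mean of 3.36 to 0.854. The pairs were chosen after values were seen, and in each the gene that fell, or fell more, is the numerator. The shared direction follows from that choice.

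Over all routes, 170 other repair genes had been listed, of which 92 had a row of their own on 93 rows. Of 92 tested rows 49 fell, 40 rose and 3 did not pass (APEX1, SHFM1 and UBE2A), and their median log2 fold change was -0.34. By share this is 53.3% lower and 43.5% higher, beside 55.6% and 44.4% for the 36 genes and 49.1% and 46.2% for all tested rows. Without AI-10-49 replicate 2, 50 fell and 41 rose.

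**Figure D4:**
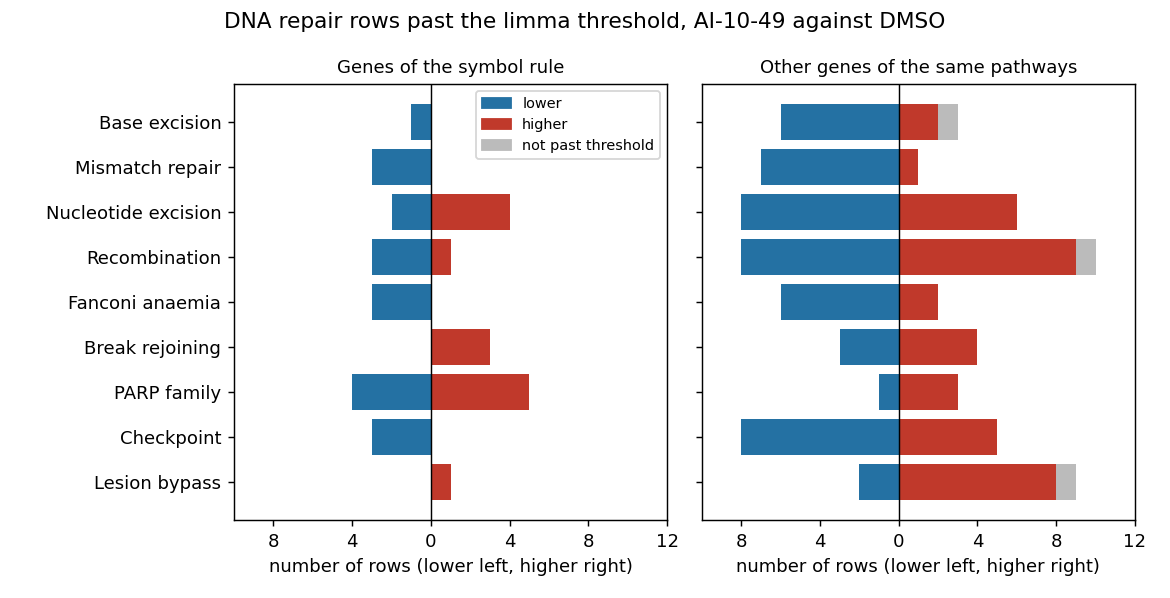
Number of rows past the limma threshold that were lower (blue, left) or higher (red, right) with AI-10-49, and rows not past it (grey), by route, for the genes of the symbol rule (left panel) and other listed genes of the same routes (right panel). Recombination had 3 lower and 1 higher in the left panel and 8 lower and 9 higher in the right. Lesion bypass had 8 higher of 11 in the right. Among all tested rows 49.1% were lower and 46.2% higher, and differences between routes were not tested.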

How the data were processed

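Total RNA of ME-1 cells was sequenced in 3 DMSO and 3 AI-10-49 libraries, grouped by their titles. Bowtie2 2.1.0, Cufflinks 2.2.0, Cuffdiff and hg19 are named, with no role given, in the submitters' processing notes. The authors deposited 1 table of FPKM with 6339 rows, 198 of which name several genes. No source used here gives how its rows were selected. FPKM are not counts, so log2(FPKM + 1) was fitted with limma 3.58.1 in R 4.3.3 (mean-variance trend, two-sided, Benjamini-Hochberg over 6230 rows, threshold 0.05). Rows under a mean of 1 FPKM in both groups were left out (109). P-values describe selected rows. The procedure was tested on simulated libraries with the spread of the DMSO libraries and few changed rows. That setting is unlike this table, in which most rows passed. The members, role lists and other gene lists were chosen with earlier results of these data known, and the paired ratios after values were seen. Of 39 members 3 are not reported here, and the other 36 are named. Values per library are given for the 3 largest changes in each role, the 3 most abundant members and BRCA2, CHEK1, ATR, XPC and DDB2, and were added for ERCC1, ERCC4 and PARP3 after values were seen. Other genes named are the 3 largest changes of each list and, chosen after their values were seen, POLB, RBX1, DMC1 and those that did not pass. Alternatives were other pseudocounts (0.1 and 0.5), filters (none and 5 FPKM), scalings, a replicate block, no trend and leaving out each library. Figures and counts used Python 3.11.15, pandas 2.3.3 and Matplotlib 3.10.9.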

Additional observations from a re-analysis of the deposited data

How the results depend on the processing

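All 36 genes remained called under each alternative except PARP3 without AI-10-49 replicate 2 and the 3 genes that a filter at 5 FPKM no longer tested. Of 537 values for single genes under 15 alternatives, 536 kept direction and call, 1 lost its call and none reversed. Leaving out single libraries gave 20 lower in every case, 15 to 16 higher and a median log2 fold change of -0.29 to -0.25. The other listed repair genes gave 47 to 50 lower and 39 to 41 higher. Quantile normalization moved the median of the 36 genes to -0.19 and that of all tested rows from -0.28 to -0.06, and the cause was not tested. It changed ERCC1 to -0.17 and PARP10 to -0.18. The same without AI-10-49 replicate 2, chosen after the data were seen, gave -0.15 for ERCC1 (adjusted p = 0.0376). With the replicate block 20 genes were lower and 16 higher, and 6015 table rows passed, against 5939 without it. Deviations of same-numbered libraries correlated at -0.15, 0.147 and 0.247 across rows, and those of unlike-numbered libraries at -0.254 to 0.205. Deviations within a group depend on each other, so these values cannot decide whether the experiments were paired. The main fit did not treat the numbers as pairs. Since depth is unknown, the precision of low genes such as FANCC rests on the spread between libraries. That spread is a gene's own combined with the mean-variance trend over all tested rows. For FANCC the limma adjusted p was 0.00799 with the trend and 0.00184 without it.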

Other observations

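Some repair genes that share a row with a neighbouring gene were outside the symbol rule and cannot be told from that neighbour. The row of RAD54B, a relative of RAD54L, with FSBP went from 9.91 ± 0.54 to 14.9 ± 1.80 FPKM (SD, n = 3), a log2 change of 0.54. The row of MSH5, a gene of meiosis, with SAPCD1 went from 11.8 ± 2.88 to 17.3 ± 2.01 FPKM (0.53). That of ERCC6, which serves repair of transcribed genes, with PGBD3 went from 4.61 ± 0.42 to 6.44 ± 0.82 FPKM (0.41). These 3 rows passed the limma threshold, all higher with AI-10-49. Among all tested rows 95.3% passed and 46.2% were higher.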
